A study of Homo sapiens with 18 samples.

Results

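ATP-binding cassette (ABC) genes were examined in 3 established human cell lines, each in normoxia and in hypoxia. The genes were all rows of the deposited count tables whose symbol starts with ABC, a letter from A to G and a number, 50 of 23106 rows. They comprised 14 genes of subfamily A, 9 of B, 14 of C, 4 of D, 1 of E, 3 of F and 5 of G, with pseudogenes named in the same way included. HKC-8 is a line from kidney proximal tubule, RCC4 is a renal carcinoma line, here stably transfected with wild-type VHL and labelled RCC4+VHL, and HepG2 is a line from a hepatocellular carcinoma. PolyA RNA was sequenced from 3 replicates of each line in each condition, 18 samples in all. The labels give 0.5% oxygen for 16 h for hypoxic HKC-8 and HepG2 cells and 1.0% for 24 h for hypoxic RCC4 cells. The study's text instead gives every line, RCC4 included, the exposure that the labels state for HKC-8 and HepG2 cells, so the exposure of RCC4 cells is uncertain. In the sample titles, however, HKC-8 hypoxia is written as 0.1%, HKC-8 normoxia as 21% and HepG2 hypoxia as 0.5%. Each line therefore stands for 1 genotype and 1 culture history, all 6 RCC4 samples carry the VHL transgene, and if the RCC4 labels hold, line and exposure cannot be told apart in comparisons with RCC4 cells. The same limit applies to HKC-8 against HepG2 cells if the titles hold. Nothing in the labels says that replicates came from separate cultures, so the p-values measure the spread between these samples, which may be technical.

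ABC proteins bind and hydrolyse ATP in a conserved pair of cassettes. Most use it to move a substrate across a membrane. Subfamily A carries lipids, B holds the drug pump P-glycoprotein, bile phospholipid and mitochondrial transporters, C holds conjugate exporters and the regulatory subunits of potassium channels, D brings fatty acids into peroxisomes and G exports sterols and drugs. Members of E and F have no membrane domain and act on ribosomes. Liver and proximal tubule rely on these exporters to clear drugs, bile acids and conjugates. Cells answer low oxygen through hypoxia-inducible factor (HIF), whose alpha subunits the VHL protein marks for destruction in oxygen.

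Total counts per sample, of reads assigned to genes, ran from 40915980 to 97984260, with the deepest libraries in HKC-8 cells, so that 3 counts in a sample, taken as the detection floor, equalled 0.0306 to 0.0733 CPM (the usual scaling of counts by library size). Of 20 genes widely used as markers of hypoxia, all 20 tested in HKC-8, all 17 tested in RCC4 and all 20 tested in HepG2 cells were higher in the hypoxic samples. The 10 hepatocyte markers were all tested in HepG2 cells, and their summed normoxic level there was 35364 to 36859 CPM against 0.264 to 0.431 in HKC-8 and 11.6 to 12.8 in RCC4 cells. Of the 10 proximal tubule markers, LRP2, SLC34A1 and SLC5A2 were at the floor in normoxic HKC-8 cells. SLC34A1 and AQP1 were at the floor in normoxic HepG2 cells. The sum of the tubule markers was nevertheless larger in normoxic HepG2 samples (307 to 322 CPM) than in normoxic HKC-8 samples (161 to 202 CPM). It was largest in normoxic RCC4 samples (691 to 721 CPM). CUBN of the same list, and CA9 of 8 markers of clear cell renal carcinoma, were at the floor in normoxic RCC4 cells. The sum of the 8 carcinoma markers was nevertheless largest in normoxic RCC4 samples (5042 to 5128 CPM). It was 1960 to 2312 CPM in normoxic HKC-8 and 324 to 377 CPM in normoxic HepG2 samples. Of 10 fibroblast and immune markers, 4 were at the floor in normoxic HepG2, 7 in RCC4 and 6 in HKC-8 cells.

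Hypoxia moved ABC genes in both directions in each line, mostly by less than 2-fold. Genes of the lipid-carrying subfamily A rose or did not pass the test, and ribosome-associated genes of E and F fell or did not pass it. E has 1 gene and F has 3, too few to set the absence of a rise apart from all genes. The ABC genes together held 0.134% to 0.229% of the counts of a sample. In HKC-8 cells 32 of the 50 genes had enough reads to be tested, of which 8 were higher in hypoxia and 4 lower at an adjusted p under 0.05. Among all genes tested in HKC-8 cells, 11.2% were higher and 9.12% lower. In RCC4 cells 11 of 29 tested ABC genes were higher and 6 lower, where 25.9% of all genes tested were higher and 24.2% lower. ABCA12 in HKC-8 and ABCB5 in RCC4 cells met the filter on low counts only through the condition in which they were high, and without them 7 were higher in HKC-8 and 5 lower in RCC4 cells. In HepG2 cells 7 of 38 were higher and 10 lower, with 19.9% and 19.2% of all genes. All 99 tests of an ABC gene are from edgeR's quasi-likelihood test with Benjamini-Hochberg adjustment over all genes of that line, and single adjusted p-values below are from it. Counts are shares of a library, so fewer cells with an mRNA and less of it per cell cannot be told apart. Hypoxic and normoxic samples did not overlap in 17, 19 and 20 of the tested ABC genes of HKC-8, RCC4 and HepG2 cells, where 39.0%, 56.4% and 50.0% of all tested genes did not. The median log2 fold change of the tested ABC genes was 0.15, 0.06 and -0.02 in the 3 lines, beside 0.0036, -0.0018 and -0.0044 for all genes.

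**Figure D1:**
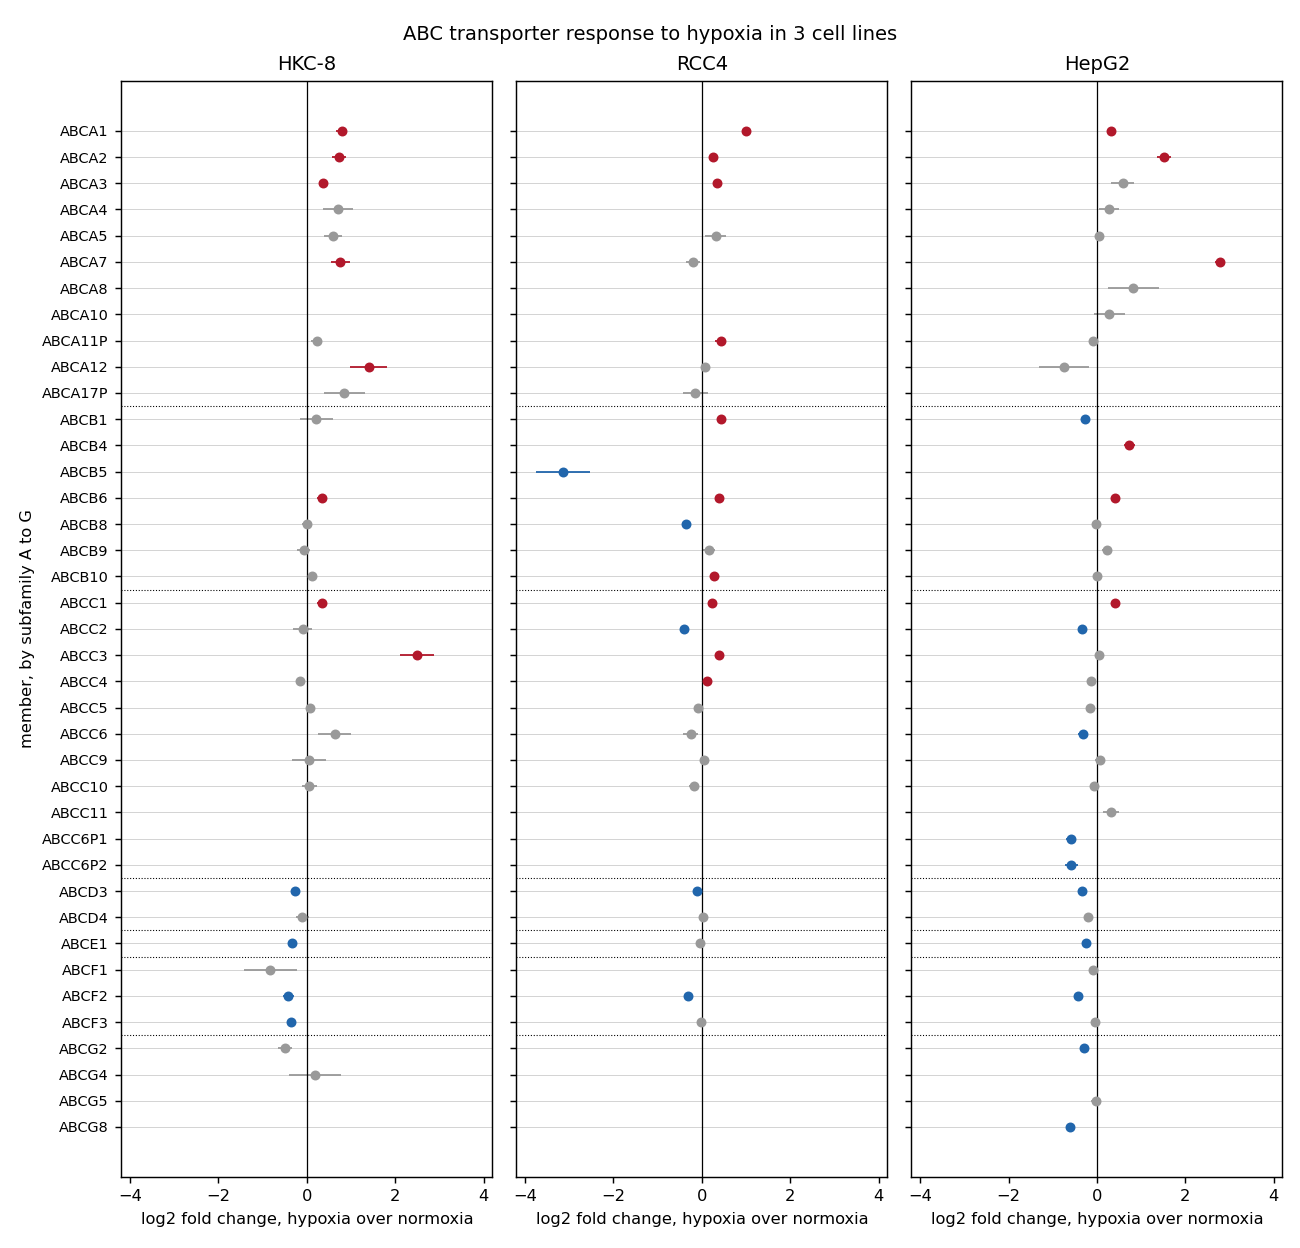
Log2 fold change of hypoxia over normoxia for tested ABC genes (points, with standard errors as bars), by subfamily from A at the top to G at the bottom, in HKC-8, RCC4 and HepG2 cells (3 samples per condition). Red points were higher and blue points lower at an edgeR adjusted p under 0.05, grey points did not pass; no subfamily A gene is blue, and the points farthest from 0 are ABCC3 in HKC-8 (2.49) and ABCA7 in HepG2 cells (2.78), and ABCB5 in RCC4 cells, which met the filter on low counts through its normoxic samples alone.

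Of the 50 genes, 27 were tested in all 3 lines, 4 in 2 lines, 10 in 1 line and 9 in none. The 9 were ABCA6, ABCA9, ABCA13, ABCB11 (the bile salt export pump), ABCC8 (a subunit of the potassium channel of the beta cell), ABCC12, ABCC13, ABCD2 and ABCG1. ABCC8 and ABCC13 had no read in any of the 18 samples. Of the 27 genes tested in all lines, 21 were called in at least 1, and ABCA5, ABCB9, ABCC5, ABCC9, ABCC10 and ABCD4 in none. ABCA12 is among the 21 only through its call in HKC-8 cells, where it met the filter through hypoxic samples alone. ABCA1, ABCA2, ABCB6 and ABCC1 were higher in all 3 lines, 4 of 27 (14.8%) where 3.81% of the 11418 genes tested in all lines were. ABCD3 and ABCF2 were lower in all 3, 2 of 27 (7.41%) beside 3.43% of all genes. ABCB1 was higher in 1 line and lower in another.

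The promoters of genes that moved the same way in every line, and of ABCA7, the gene with the largest rise in HepG2 cells, are given because HIF binds a core of RCGTG type, spelled here as ACGTG or GCGTG and searched on both strands. The sequences are the 250 bases before the start of the first listed RefSeq entry of each gene (RefSeq table of build GRCh38.p14), found by exact match at 1 place of GRCh37, and are written 5′ to 3′ on the strand of the gene with every match in capitals. ABCC1 was not among the entries. The GENCODE annotation starts ABCA7 and ABCB6 farther upstream, inside these windows. They lie at chr9:107690437-107690686 (minus strand) for ABCA1, chr9:139923375-139923624 (minus) for ABCA2, chr19:1039856-1040105 (plus) for ABCA7, chr2:220083681-220083930 (minus) for ABCB6, chr1:94883695-94883944 (plus) for ABCD3 and chr7:150924292-150924541 (minus) for ABCF2.
ABCA1: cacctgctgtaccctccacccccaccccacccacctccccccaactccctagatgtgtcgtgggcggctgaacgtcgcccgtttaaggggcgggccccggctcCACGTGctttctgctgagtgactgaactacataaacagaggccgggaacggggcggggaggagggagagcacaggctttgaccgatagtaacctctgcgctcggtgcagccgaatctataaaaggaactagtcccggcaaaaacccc
ABCA2: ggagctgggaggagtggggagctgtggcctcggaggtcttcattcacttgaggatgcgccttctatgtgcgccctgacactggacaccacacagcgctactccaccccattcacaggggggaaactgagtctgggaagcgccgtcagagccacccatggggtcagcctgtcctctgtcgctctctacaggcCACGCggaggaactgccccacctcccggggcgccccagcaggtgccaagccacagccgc
ABCA7: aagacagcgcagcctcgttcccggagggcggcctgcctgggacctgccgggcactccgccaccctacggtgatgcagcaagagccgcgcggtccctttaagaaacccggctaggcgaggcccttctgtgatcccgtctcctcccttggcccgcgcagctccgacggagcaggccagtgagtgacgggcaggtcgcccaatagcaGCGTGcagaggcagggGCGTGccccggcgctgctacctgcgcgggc
ABCB6: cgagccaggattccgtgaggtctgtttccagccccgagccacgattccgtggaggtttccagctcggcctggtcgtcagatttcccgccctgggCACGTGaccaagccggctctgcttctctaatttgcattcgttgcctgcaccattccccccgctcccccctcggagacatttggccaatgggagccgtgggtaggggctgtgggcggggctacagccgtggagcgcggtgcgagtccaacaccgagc
ABCD3: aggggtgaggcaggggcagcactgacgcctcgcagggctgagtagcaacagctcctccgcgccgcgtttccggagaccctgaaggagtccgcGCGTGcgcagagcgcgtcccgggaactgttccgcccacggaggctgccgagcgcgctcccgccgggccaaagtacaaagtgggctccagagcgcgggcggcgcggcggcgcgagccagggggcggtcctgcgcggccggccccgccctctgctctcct
ABCF2: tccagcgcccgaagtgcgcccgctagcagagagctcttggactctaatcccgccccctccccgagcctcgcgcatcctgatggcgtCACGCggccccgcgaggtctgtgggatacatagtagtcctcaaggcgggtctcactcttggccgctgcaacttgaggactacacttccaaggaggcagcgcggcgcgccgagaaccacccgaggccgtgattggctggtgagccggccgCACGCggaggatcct

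In the promoters of ABCA1 and ABCB6 the match is the palindrome CACGTG, which reads as ACGTG on both strands, so its 2 matches overlap. ABCA7 and ABCF2 held 2 separate matches each, and ABCA2 and ABCD3 held 1 each. A match stood in 43.1% of 27305 RefSeq promoters of the same length and in 18 of the 35 ABC genes that had an entry. Among ABC genes with an entry it stood in 7 of 9 called higher in some line, 5 of 10 called lower in some line and 5 of 11 tested and called in none, with ABCB1, which had no match, counted as both higher and lower. Among the 15 ABC genes without an entry were ABCA4, ABCA8, ABCA11P, ABCA17P, ABCB4, ABCB5, ABCC1, ABCC3, ABCC6P1, ABCC6P2, ABCC8, ABCC13 and ABCG1. A match describes letters in this window and not binding, and genes that fell held it too.

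In subfamily A, hypoxia raised 5 of 9 tested genes in HKC-8, 4 of 8 in RCC4 and 3 of 10 in HepG2 cells, and lowered none in any line. Of all genes tested in these lines, 11.2%, 25.9% and 19.9% rose and 9.12%, 24.2% and 19.2% fell. These shares also stand beside the counts of the other subfamilies and of the partner lists below, many of which are near them. The median log2 fold change of the tested subfamily A genes was 0.73, 0.28 and 0.29. ABCA12 is among the 5 in HKC-8 cells and in their median, although it met the filter on low counts there through hypoxic samples alone. Values in every sample are given here and below for the genes called with a log2 fold change of at least 0.5 in either direction in at least 1 line, 10 of which are reported, and for ABCB1, ABCB6, ABCC1, ABCC2, ABCC6, ABCD3, ABCE1, ABCF2 and ABCG2, which do not reach that size in a call and were chosen after their values were seen. Levels are CPM scaled by the trimmed mean of M-values (TMM) within each line. Gene positions are those of the GENCODE annotation on GRCh37.

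ABCA1, which loads cellular cholesterol and phospholipid onto apolipoprotein A-I, lies on chromosome 9 (chr9:107543287-107690436, minus strand). In HKC-8 cells it stood at 4.31, 4.62 and 4.56 CPM in normoxia and at 8.41, 7.64 and 7.22 CPM in hypoxia. RCC4 cells had 49.7, 42.8 and 43.4 CPM in normoxia and 89.6, 92.7 and 87.9 CPM in hypoxia. HepG2 cells had 106, 96.3 and 116 CPM in normoxia and 125, 139 and 131 CPM in hypoxia. Every hypoxic sample lay above every normoxic one of its line, although normoxic levels differed widely between lines. The log2 fold change was 0.79 ± 0.13 (SE, n = 3 per condition, adjusted p = 0.00456) in HKC-8, 0.99 ± 0.05 (adjusted p = 1.35e-13) in RCC4 and 0.31 ± 0.07 (adjusted p = 0.00437) in HepG2 cells. In the test of the difference between lines (interaction of line and oxygen), HKC-8 minus HepG2 was 0.47 ± 0.12 (adjusted p = 0.0268) and RCC4 minus HepG2 0.67 ± 0.10 (adjusted p = 4.85e-05).

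ABCA2, a lipid transporter of endosomes and lysosomes abundant in myelinating cells, lies at chr9:139901686-139923367 (minus strand). HepG2 cells had 12.5, 11.5 and 7.41 CPM in normoxia and 33.0, 30.9 and 25.8 CPM in hypoxia. HKC-8 cells went from 10.2, 7.23 and 8.49 CPM to 15.7, 14.8 and 12.6 CPM, and RCC4 cells from 32.7, 33.2 and 33.0 CPM to 41.8, 39.3 and 37 CPM. The groups did not overlap in any line, and hypoxic HepG2 cells came close to the normoxic level of RCC4 cells. The log2 fold change was 1.51 ± 0.15 (adjusted p = 5.54e-06) in HepG2, 0.73 ± 0.15 (adjusted p = 0.0121) in HKC-8 and 0.26 ± 0.05 (adjusted p = 0.000361) in RCC4 cells. RCC4 minus HepG2 was -1.27 ± 0.17 in the interaction test (adjusted p = 2.61e-05), and HKC-8 minus HepG2, -0.79 ± 0.25, missed the threshold (adjusted p = 0.0594).

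ABCA7, a phospholipid transporter known from the genetics of Alzheimer's disease, lies at chr19:1039996-1065571 (plus strand) and gave the largest rise in HepG2 cells. It stood there at 8.77, 9.22 and 6.65 CPM in normoxia and at 56.4, 59.5 and 53.1 CPM in hypoxia, a 6.85-fold difference with no overlap. HKC-8 cells had 2.49, 2.38 and 2.83 CPM in normoxia and 5.68, 4.03 and 3.34 CPM in hypoxia. RCC4 cells had 4.08, 3.28 and 3.27 CPM in normoxia and 2.84, 3.18 and 3.23 CPM in hypoxia. The log2 fold change was 2.78 ± 0.11 (adjusted p = 2.58e-10) in HepG2 and 0.76 ± 0.21 (adjusted p = 0.0363) in HKC-8 cells, and -0.20 ± 0.15 in RCC4 cells, which did not pass although the groups did not overlap (adjusted p = 0.275). All 3 pairs of lines differed in this response: HKC-8 minus HepG2 was -2.02 ± 0.24 (adjusted p = 8.21e-05), RCC4 minus HepG2 -2.99 ± 0.17 (adjusted p = 2.70e-10) and RCC4 minus HKC-8 -0.98 ± 0.27 (adjusted p = 0.0260).

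ABCA12, the lipid transporter of skin lamellar granules, lies at chr2:215796266-216003349 (minus strand). In HKC-8 cells its counts were 13, 7 and 11 in normoxia and 35, 26 and 22 in hypoxia, or 0.125 and 0.334 CPM on average. The groups did not overlap, but the gene met the filter through its hypoxic samples alone, so its call in HKC-8 cells is not read as a change. That call was lost with DESeq2, without a filter on low counts and without any 1 of the 6 samples. RCC4 cells had a mean of 29.5 ± 2.35 CPM (SD, n = 3) in normoxia and 30.8 ± 2.35 in hypoxia, and the change there, 0.06 ± 0.06, did not pass. The other called genes of the subfamily were ABCA3, a lipid transporter of lung surfactant, with log2 fold changes of 0.37 ± 0.10 in HKC-8 and 0.35 ± 0.05 in RCC4 cells, and the pseudogene ABCA11P with 0.42 ± 0.13 in RCC4 cells. The annotation places exons of ABCA11P over those of ZNF721 on the same strand.

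Of 14 partner genes of sterol efflux and its liver X receptor control, 3 of 13 tested rose in HKC-8 and none fell, 1 of 11 rose and 5 fell in RCC4, and 6 of 14 rose and 2 fell in HepG2 cells. With replicate number as a block, which pairs samples in HKC-8 cells, 5 rose there, LCAT and SCARB1 being added. NPC2, which hands cholesterol to NPC1 in lysosomes, rose in HKC-8 (log2 fold change 0.62 ± 0.10) and RCC4 cells (0.18 ± 0.04) and fell in HepG2 cells (-0.30 ± 0.08). NPC1, which passes that cholesterol out of lysosomes, rose in HKC-8 (0.47 ± 0.10) and HepG2 cells (0.24 ± 0.07) and fell in RCC4 cells (-0.09 ± 0.04). SCARB1, the receptor for high-density lipoprotein, rose in HepG2 cells by 0.55 ± 0.06, and MYLIP, which directs the degradation of the low-density lipoprotein receptor, fell in RCC4 cells by 0.48 ± 0.15.

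**Figure D2:**
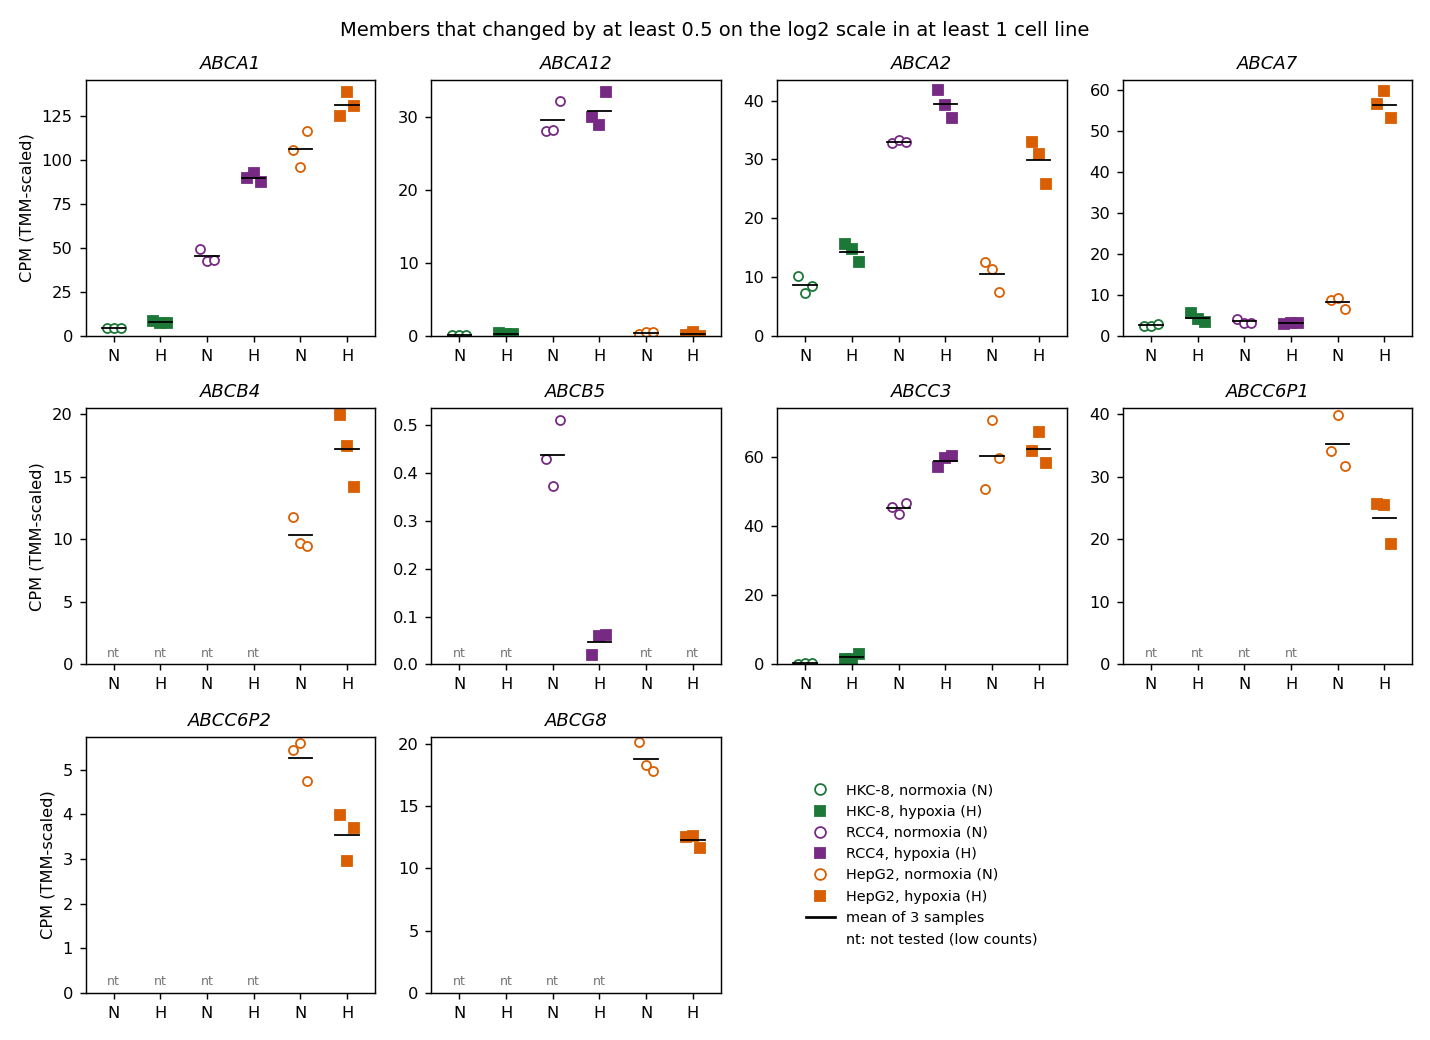
TMM-scaled CPM in each sample (linear axes from 0) of 10 ABC genes called with a log2 fold change of at least 0.5 in either direction in at least 1 cell line. Open circles are normoxic (N) and filled squares hypoxic (H) samples of HKC-8 (green), RCC4 (purple) and HepG2 cells (orange), bars are means of 3 samples and nt marks lines where the gene was not tested; the mean of ABCA7 in HepG2 cells goes from 8.21 to 56.3 CPM, and that of ABCC3 in HKC-8 cells from 0.370 to 2.10 CPM.

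Subfamily B split by line. Hypoxia raised 1 of 6 tested genes in HKC-8, 4 of 7 in RCC4 and 2 of 7 in HepG2 cells, and lowered none, 2 and 1. The 2 in RCC4 cells include ABCB5, which met the filter on low counts through normoxic samples alone and is not read as a fall. ABCB6, a porphyrin transporter linked to heme synthesis (chr2:220074494-220083716, minus strand), rose in all 3 lines. It stood at 68.6, 73.8 and 63.0 CPM in normoxic and 95.5, 93.5 and 85.6 CPM in hypoxic HepG2 cells. HKC-8 cells had 32.6, 31.8 and 34.8 CPM against 42.9, 45.2 and 36.8 CPM, and RCC4 cells had 29.7, 31.8 and 31.4 CPM against 39.8, 39.9 and 42.1 CPM. No line overlapped between conditions, and the annotation places an unnamed gene over exons of ABCB6 on the same strand. The log2 fold changes of ABCB6 were 0.33 ± 0.10 in HKC-8 (adjusted p = 0.0423), 0.39 ± 0.05 in RCC4 (adjusted p = 1.36e-06) and 0.42 ± 0.07 in HepG2 cells (adjusted p = 0.000430). Its responses differed between lines by 0.09 or less on the log2 scale, and the widest approximate 95% interval of such a difference, HKC-8 minus HepG2, ran from -0.33 to 0.15.

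ABCB1, the multidrug efflux pump P-glycoprotein (chr7:87132333-87342639, minus strand), moved in opposite directions in the 2 carcinoma lines. RCC4 cells had 264, 262 and 273 CPM in normoxia and 353, 363 and 363 CPM in hypoxia, and HepG2 cells had 80.6, 76.2 and 91.2 CPM in normoxia and 70.1, 69.9 and 67.3 CPM in hypoxia. The rise in RCC4 cells was 0.43 ± 0.03 (adjusted p = 1.64e-10) and the fall in HepG2 cells -0.26 ± 0.07 (adjusted p = 0.0104), with no overlap in either. RCC4 minus HepG2 was 0.68 ± 0.08 (adjusted p = 3.39e-06). HKC-8 cells held only 34 to 81 counts of ABCB1 in a sample, and their change, 0.21 ± 0.37, did not pass.

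ABCB4, which flips phosphatidylcholine into bile (chr7:87031012-87109751, minus strand), was tested in HepG2 cells alone, where it rose. Its levels were 11.8, 9.67 and 9.48 CPM in normoxia and 19.9, 17.4 and 14.2 CPM in hypoxia, without overlap, a log2 fold change of 0.74 ± 0.13 (adjusted p = 0.000539). ABCB4 and ABCB1 neighbour each other on chromosome 7 and moved apart in these cells. ABCB5, a transporter best known from melanoma (chr7:20655290-20816658, plus strand), had 22, 19 and 22 counts in normoxic and 1, 3 and 3 in hypoxic RCC4 cells, and was tested there alone. Summed over the libraries, the ratio of hypoxic to normoxic reads per total was 0.103 with an exact 95% counting interval of 0.0398 to 0.225. The gene passed the filter through its normoxic samples alone, so no test is given, and all its hypoxic samples stood at or under the floor of 3 counts.

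ABCB10 and ABCB8 of the mitochondria were called in RCC4 cells. ABCB10, which works in heme synthesis of the inner membrane, rose in RCC4 cells by 0.28 ± 0.04. ABCB8, part of a mitochondrial potassium channel complex, fell in RCC4 cells from 62.2 ± 2.43 to 48.6 ± 0.587 CPM, a log2 fold change of -0.36 ± 0.05 (adjusted p = 6.85e-07). Neither gene was called in HKC-8 or HepG2 cells. Of 12 partner genes of iron-sulfur and heme synthesis, 2 rose and 4 fell in HKC-8, 2 rose and 5 fell in RCC4, and 1 rose and 7 fell in HepG2 cells. The block gave 2 higher and 6 lower in HKC-8 cells. CPOX, an enzyme of heme synthesis in the mitochondrial intermembrane space, rose in all 3 lines (0.37 ± 0.08, 0.39 ± 0.05 and 0.96 ± 0.08), as ABCB6 did. ISCU, the scaffold of iron-sulfur clusters, and UROD, a cytosolic enzyme of heme synthesis, fell in all 3, by 0.37 to 0.43 and by 0.18 to 0.61 on the log2 scale. ALAS1, the first enzyme of heme synthesis, rose in HKC-8 cells alone among the calls (0.45 ± 0.10).

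In subfamily C, hypoxia raised 2 of 8 tested genes in HKC-8, 3 of 8 in RCC4 and 1 of 11 in HepG2 cells, and lowered none, 1 and 4. ABCC1, the multidrug resistance protein that exports glutathione conjugates (chr16:16042995-16237114, plus strand), rose in all 3 lines. HepG2 cells had 171, 181 and 198 CPM in normoxia and 230.0, 237 and 261 CPM in hypoxia. HKC-8 cells had 103, 102 and 86.9 CPM against 117, 136 and 116 CPM, and RCC4 cells 109, 111 and 103 CPM against 128, 125 and 122 CPM. The conditions did not overlap in any line. The log2 fold changes of ABCC1 were 0.34 ± 0.10 in HKC-8 (adjusted p = 0.0386), 0.22 ± 0.04 in RCC4 (adjusted p = 6.31e-05) and 0.40 ± 0.07 in HepG2 cells (adjusted p = 0.000589). No pair of lines passed the test of a difference for ABCC1. In HKC-8 cells the call was lost without any 1 of the 6 samples, in fits without a block, with an adjusted p of at most 0.0885. With all 6 samples and replicate number as a block, the log2 fold change of ABCC1 was 0.34 ± 0.06 there (adjusted p = 0.00187).

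ABCC3, which exports bile acid and drug glucuronides across the basolateral membrane (chr17:48712138-48769614, plus strand), gave the largest rise in HKC-8 cells. Its counts there were 20, 27 and 46 in normoxia and 113, 158 and 252 in hypoxia, or 0.246, 0.344 and 0.521 CPM against 1.46, 1.67 and 3.16 CPM. The groups stood far apart, at a 5.61-fold difference, while the level in hypoxia stayed low. In RCC4 cells it went from 45.6, 43.5 and 46.9 CPM to 57.2, 59.7 and 60.3 CPM. The log2 fold change was 2.49 ± 0.39 (adjusted p = 0.00366) in HKC-8 and 0.38 ± 0.05 (adjusted p = 3.68e-07) in RCC4 cells, and HepG2 cells, at 60.5 ± 10.0 and 62.6 ± 4.49 CPM, did not pass (0.05 ± 0.10). HKC-8 minus HepG2 was 2.42 ± 0.37 (adjusted p = 0.000660) and RCC4 minus HKC-8 -2.11 ± 0.36 (adjusted p = 0.00173) in the interaction test.

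ABCC2, which exports conjugated bilirubin across the apical membrane of hepatocytes and tubule cells (chr10:101542397-101612351, plus strand), fell in both lines that expressed it well. It went from 395, 486 and 465 CPM to 352, 379 and 333 CPM in HepG2 and from 74.8, 76.2 and 79.2 CPM to 54.6, 59.8 and 59.4 CPM in RCC4 cells. Both groups were apart, and the log2 fold changes were -0.34 ± 0.08 (adjusted p = 0.00436) and -0.40 ± 0.05 (adjusted p = 1.14e-07). HKC-8 cells stood at 1.71 ± 0.312 and 1.60 ± 0.138 CPM with no call. ABCC4, an exporter of cyclic nucleotides and urate, rose in RCC4 cells from 193 ± 9.07 to 211 ± 2.62 CPM, a log2 fold change of 0.13 ± 0.04.

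ABCC6, which mediates ATP release from hepatocytes and is mutated in pseudoxanthoma elasticum, and its pseudogenes ABCC6P1 and ABCC6P2 fell in HepG2 cells. ABCC6P1 (chr16:18582484-18609650, plus strand) went from 34.1, 39.9 and 31.6 CPM to 25.5, 25.4 and 19.3 CPM. ABCC6P2 (chr16:14916289-14918559, minus strand) went from 5.44, 5.61 and 4.74 CPM to 3.99, 2.95 and 3.69 CPM. Neither overlapped between conditions, with log2 fold changes of -0.59 ± 0.11 (adjusted p = 0.00107) and -0.57 ± 0.15 (adjusted p = 0.00759), while ABCC6 itself did overlap (58.9, 68.8 and 49.4 against 49.7, 51.1 and 42.0 CPM, -0.31 ± 0.11, adjusted p = 0.0341). The 3 genes are near-identical over long stretches and fragments that mapped to several places were removed, so their counts are uncertain and the split of reads among them cannot be told apart. The potassium channel subunit ABCC9 passed in no line, and of 2 pore genes of that channel only 1 was tested in each line, with no call.

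Among 15 other carriers of bile acids and organic ions, some for uptake and some for efflux, 1 of 2 tested was called higher in HKC-8, 4 of 7 higher and 2 lower in RCC4, and 1 of 7 higher and 4 lower in HepG2 cells. SLC51A, a subunit of the basolateral bile acid carrier, rose in HepG2 cells from 0.575 ± 0.0782 to 7.58 ± 0.742 CPM (3.71 ± 0.17), while its partner SLC51B fell there (-0.36 ± 0.10). In RCC4 cells SLC51B was called lower but met the filter through its normoxic samples alone. SLCO4C1, an organic anion carrier of the kidney, rose in RCC4 (0.36 ± 0.04) and fell in HepG2 cells (-0.73 ± 0.16). It is also the gene called in HKC-8 cells, where it had 5, 2 and 12 counts in normoxia and 26, 30 and 38 in hypoxia and met the filter through the hypoxic samples alone. SLC47A2, a proton-coupled exporter of organic cations, fell in RCC4 cells (-2.67 ± 0.30). Of 10 receptors and scaffolds that sense or anchor drugs and bile acids, none of 5 tested was called in HKC-8, 2 of 6 rose and 3 fell in RCC4, and 1 of 10 rose and 2 fell in HepG2 cells. The block added PDZK1, an apical scaffold, in HKC-8 cells (0.76, adjusted p = 6.86e-05). NR1H4, the bile acid receptor, fell in HepG2 cells by 0.72 ± 0.11. AHR, the dioxin receptor, rose in RCC4 (0.75 ± 0.06) and fell in HepG2 cells (-0.48 ± 0.10). SLC9A3R1, a further apical scaffold, fell in RCC4 (-0.35 ± 0.04) and rose in HepG2 cells (0.41 ± 0.06), and NR5A2, a regulator of bile acid synthesis, rose in RCC4 cells from a low level (1.84 ± 0.33).

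Of the peroxisomal subfamily D, ABCD3 fell in all 3 lines. ABCD3, which carries branched and dicarboxylic fatty acids (chr1:94883945-94984222, plus strand), had 165, 160 and 155 CPM in normoxic and 134, 136 and 128 CPM in hypoxic HKC-8 cells. HepG2 cells had 220, 195 and 232 CPM in normoxia and 172, 168 and 175 CPM in hypoxia, and RCC4 cells had 100, 94.0 and 100 CPM against 89.9, 91.1 and 91.2 CPM. The falls were -0.27 ± 0.07 (adjusted p = 0.0279), -0.33 ± 0.07 (adjusted p = 0.00182) and -0.11 ± 0.04 (adjusted p = 0.0232) in HKC-8, HepG2 and RCC4 cells, without overlap in any line.

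Of 10 partner genes of peroxisomal import and oxidation, 1 fell in HKC-8, 1 rose and 5 fell in RCC4, and 1 rose and 2 fell in HepG2 cells. With the block 5 fell in HKC-8 cells, PEX5, PEX14, HSD17B4 and SCP2 being added, where 21.6% of all genes fell. PEX3, needed to build the peroxisomal membrane, rose in RCC4 (0.32 ± 0.06) and HepG2 cells (0.22 ± 0.06). ACOT8, a peroxisomal thioesterase, fell in RCC4 (-0.17 ± 0.07) and HepG2 cells (-0.32 ± 0.09), and PEX14, of the import pore, fell in RCC4 cells (-0.28 ± 0.08).

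The ribosome-associated genes of subfamilies E and F were higher in hypoxia in no line. ABCF2, whose protein belongs to a family of translation factors (chr7:150908570-150924291, minus strand), had 233, 275 and 208 CPM in normoxic and 166, 205 and 164 CPM in hypoxic HKC-8 cells. RCC4 cells had 189, 192 and 189 CPM against 152, 152 and 155 CPM, and HepG2 cells 85.7, 90.0 and 95.4 CPM against 66.9, 63.8 and 70.9 CPM. Its log2 fold change in HKC-8, RCC4 and HepG2 cells was -0.42 ± 0.12 (adjusted p = 0.0425), -0.31 ± 0.03 (adjusted p = 6.31e-08) and -0.43 ± 0.06 (adjusted p = 0.000185), without overlap. No difference between lines passed, and the approximate 95% interval of HKC-8 minus HepG2 ran from -0.29 to 0.29. The annotation also names a readthrough gene over the exons of ABCF2.

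ABCE1, whose exons overlap those of ANAPC10 and OTUD4 on the other strand and which splits ribosomes for reuse after termination (chr4:146019440-146050676, plus strand), fell in HKC-8 cells from 532, 525 and 455 CPM to 383, 403 and 412 CPM and in HepG2 cells from 232, 236 and 256 CPM to 207, 204 and 200 CPM. RCC4 cells stood at 163 ± 1.38 and 159 ± 3.66 CPM, overlapping between conditions. The log2 fold changes were -0.34 ± 0.09 (adjusted p = 0.0267), -0.25 ± 0.06 (adjusted p = 0.00517) and -0.03 ± 0.03, and RCC4 cells differed from both other lines, with RCC4 minus HKC-8 at 0.28 ± 0.08 (adjusted p = 0.0345) and RCC4 minus HepG2 at 0.20 ± 0.07 (adjusted p = 0.0302). ABCF3, a further member of that family, fell in HKC-8 cells alone (-0.35 ± 0.09), and RCC4 cells differed from HKC-8 cells in this by 0.31 ± 0.10 (adjusted p = 0.0454). In HKC-8 cells the calls of ABCD3, ABCE1, ABCF2 and ABCF3 were each lost without normoxia 1, normoxia 2, hypoxia 1 or hypoxia 3, in fits without a block. With all samples and replicate number as a block, their adjusted p was 0.00282, 0.00324, 0.000281 and 0.00104 in that order. Of 12 partner genes of ribosome recycling and eIF2 control, 11 were in the files, of which 1 rose and 4 fell in HKC-8, 3 rose and 1 fell in RCC4, and 2 rose and 1 fell in HepG2 cells. In HKC-8 cells the block gave 1 higher and 6 lower. ETF1, the release factor that works before ABCE1, fell in HKC-8 (-0.34 ± 0.10) and RCC4 cells (-0.21 ± 0.03). NEMF and EIF2AK4, a ribosome quality control factor and a kinase that senses stalled ribosomes, both fell in HKC-8 (-0.38 ± 0.07 and -0.55 ± 0.09) and rose in RCC4 cells (0.24 ± 0.07 and 0.28 ± 0.04), and EIF2S2, a subunit of eIF2, rose in HKC-8 cells (0.32 ± 0.07).

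Of the 5 genes of subfamily G, 3 were tested in HepG2, 2 in HKC-8 and none in RCC4 cells, and 2 fell, both in HepG2 cells. ABCG8, which pairs with ABCG5 to pump sterols into bile (chr2:44059081-44110127, plus strand), had 20.1, 18.3 and 17.8 CPM in normoxic and 12.5, 12.6 and 11.6 CPM in hypoxic HepG2 cells. The groups did not overlap, and it fell by 0.62 ± 0.09 on the log2 scale (adjusted p = 0.000108). ABCG5 stood at 14.4 ± 2.30 and 14.3 ± 1.55 CPM, with overlapping groups and a change of -0.01 ± 0.12. These genes lie head to head, and the annotation places exons of each over the other on the opposite strand. The strand setting of the counting is not given in the sources used here, so reads of that stretch cannot be told apart. ABCG2, the breast cancer resistance protein that exports drugs and urate, fell in HepG2 cells from 27.0 ± 4.33 to 22.1 ± 0.877 CPM (-0.29 ± 0.10, adjusted p = 0.0361). HKC-8 cells had 7.0, 7.56 and 9.88 CPM of ABCG2 in normoxia and 5.72, 5.83 and 5.79 CPM in hypoxia, -0.49 ± 0.15, which missed the threshold without a block (adjusted p = 0.0511) and passed with it (adjusted p = 0.00967).

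In HKC-8 cells the normoxic and hypoxic samples of replicate numbers 2 and 3 deviated together, and those of number 1 less so. The fit with replicate number as a block gave 10 ABC genes higher and 6 lower there, where 21% of all genes were higher and 21.6% lower. The genes added included ABCA5 (adjusted p = 0.0131) among those higher and ABCG2 among those lower. Fits with 1 sample left out had no block. Without normoxia 1, HKC-8 cells had 3 ABC genes higher and none lower, and likewise 3 and none without normoxia 2. They had 2 and none without hypoxia 1, 5 higher without hypoxia 2, and 1 lower without hypoxia 3. With all 18 samples in 1 fit, RCC4 cells had 6 genes higher, and the calls lost there included ABCA2, ABCC1, ABCC3, ABCC4 and ABCD3. Leaving out 1 sample lost ABCA3 in 5 of 6 instances, ABCB6 in 4, ABCA7 in 3 and ABCA2 in 1 in HKC-8 cells, ABCD3 in 4 and ABCA11P and ABCC4 in 1 in RCC4 cells, and ABCC6 and ABCG2 in 4 in HepG2 cells. The fit of all samples left 6 lower in HepG2 cells and lost ABCB1, ABCC6, ABCC6P2 and ABCG2. In 8 tests the log2 fold change was at least 0.5 in size without a call, 5 of them in HKC-8, 3 in HepG2 and 0 in RCC4 cells; the lowest adjusted p among them was that of ABCA5 in HKC-8 cells (0.58 ± 0.21, adjusted p = 0.0743).

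The labels give HKC-8 and HepG2 cells the same exposure. The sample titles, however, write 0.1% oxygen for hypoxic HKC-8 and 0.5% for hypoxic HepG2 cells. If the titles hold, line and exposure cannot be told apart in this pair either. The response to hypoxia differed between these lines in 4 of 41 ABC genes tested, beside 9.30% of all genes. These were ABCA1, ABCA7, ABCC3 and ABCC6P1, of which ABCC6P1 held 0 to 2 counts in each normoxic HKC-8 sample, was not tested in HKC-8 cells alone and is not read as a difference, which leaves 3. The count was 9 with the replicate block, 8 in a fit of all 18 samples, 7 with DESeq2 and 2 to 6 when 1 sample was left out, with 2 without HKC-8 normoxia 1, HKC-8 hypoxia 1, HepG2 hypoxia 1 or HepG2 hypoxia 3. RCC4 differed from HKC-8 cells in 8 of 33 ABC genes, beside 15.2% of all genes, and from HepG2 cells in 11 of 40, beside 22.6%, or 10 without ABCB5, which was not tested in HepG2 cells alone. The first count ran from 3 to 9 when 1 sample was left out, with 3 or 4 without any RCC4 sample, HKC-8 normoxia 1, normoxia 2 or hypoxia 1, and the second was 7 in the fit of all samples. Among the 8 that differed between RCC4 and HKC-8 cells, ABCA12 met the filter of HKC-8 cells through hypoxic samples alone. It is not read as a difference. Only ABCA7 differed in all 3 pairs. These tests share samples and are given side by side.

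In normoxia the 3 lines expressed different ABC genes. Levels between genes are given as CPM per kilobase of exon, from TMM scaling over all 18 samples and the union of annotated exons. In HKC-8 cells the highest were ABCE1 (78.2 ± 6.66, SD, n = 3), ABCF2 (44.9 ± 6.24), ABCD3 (20.3 ± 0.620), ABCF3 (12.4 ± 0.544) and ABCC1 (10.8 ± 1.02), and ABCC1 did not stand above ABCB10 (10.7 ± 0.601) beyond their spread. In RCC4 cells they were ABCB1 (41.9 ± 0.860), ABCF2 (37.2 ± 0.424), ABCE1 (26.3 ± 0.298), ABCC4 (22.7 ± 1.01) and ABCB10 (13.2 ± 0.302), with ABCD3 in the fifth place when the longest transcript was taken as the length. In HepG2 cells they were ABCC2 (58.5 ± 5.80), ABCE1 (39.4 ± 2.25), ABCD3 (28.8 ± 2.80), ABCC1 (21.5 ± 1.66) and ABCF1 (20.2 ± 0.999), of which ABCC1 and ABCF1 lay within their spread of each other. ABCE1 was among the highest 3 in each line. At least 10 CPM were reached by 14, 21 and 28 ABC genes in HKC-8, RCC4 and HepG2 cells, and 10, 13 and 4 were at 0 in all 3 normoxic samples.

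**Figure D3:**
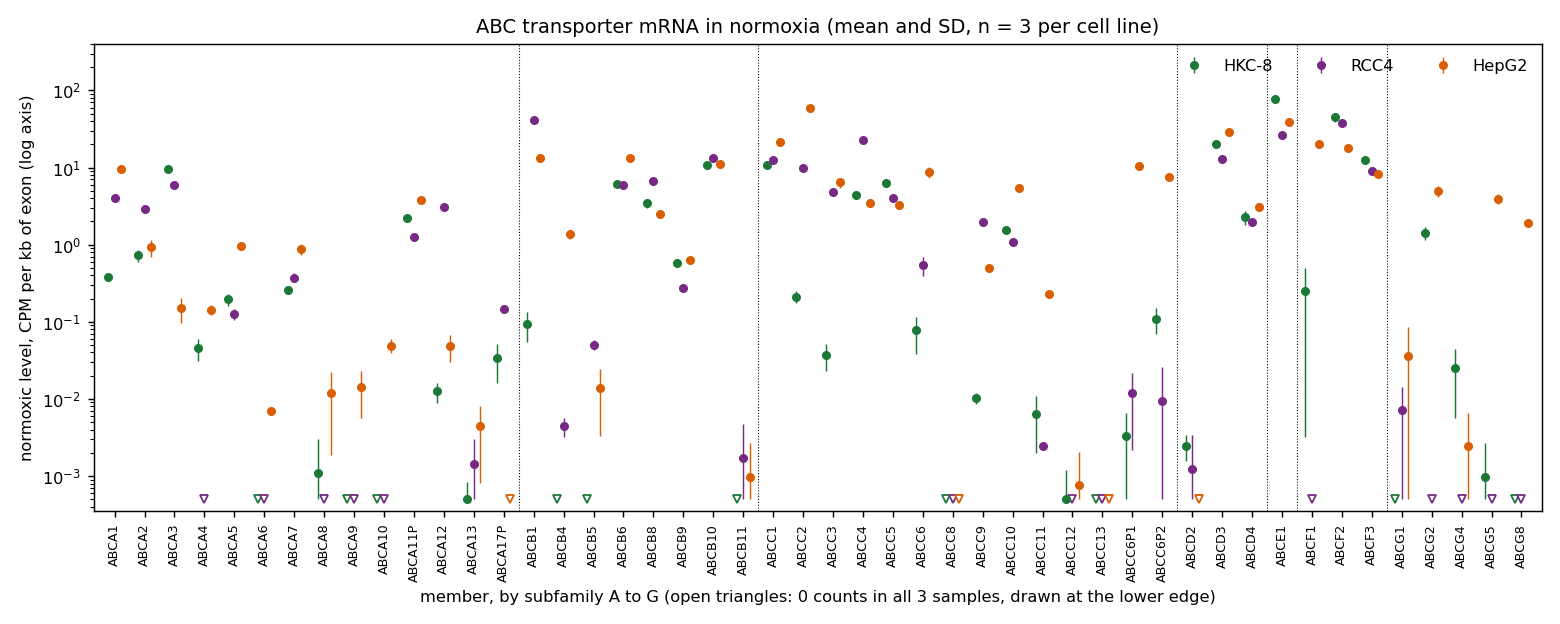
Normoxic level of ABC genes in CPM per kilobase of exon (log axis; mean and SD of 3 samples, TMM over all 18 samples) in HKC-8 (green), RCC4 (purple) and HepG2 cells (orange), with dotted lines between subfamilies. Open triangles mark genes with 0 counts in all 3 samples; ABCB1 leads in RCC4 cells at 41.9, ABCC2 in HepG2 cells at 58.5 and ABCE1 in HKC-8 cells at 78.2.

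Between HKC-8 and HepG2 cells, 27 of 39 tested ABC genes differed by at least 2-fold at an adjusted p under 0.05, beside 47.1% of all genes, with 3 higher in HKC-8 and 24 higher in HepG2 cells. RCC4 differed from HKC-8 cells in 19 of 39, beside 46.4%, with 13 higher in RCC4 and 6 in HKC-8 cells, and from HepG2 cells in 31 of 39, beside 49.7%, with 10 higher in RCC4 and 21 in HepG2 cells. These counts include genes that met the filter on low counts only through the line where they are high. Among them, ABCA10, ABCB4, ABCC6P1, ABCC6P2, ABCC11, ABCG5 and ABCG8 did so through HepG2 cells, and their calls are not read as tested differences. ABCA17P and ABCB5 between HKC-8 and HepG2 cells, and ABCB4 between RCC4 and HKC-8 cells, met it only through the remaining line. Requiring at least 10 counts in every sample gave smaller counts, listed at the end without the shares of all genes. The line and its sequencing run or culture cannot be told apart in these comparisons. The 3 genes higher in HKC-8 than in HepG2 cells were ABCA3 (75.5 ± 6.30 against 1.17 ± 0.423 CPM), the pseudogene ABCA17P, at 0 in HepG2 cells, and ABCF2. RCC4 cells stood out with ABCB1 (269 ± 5.52 CPM against 84.5 ± 8.49 in HepG2 and 0.600 ± 0.254 in HKC-8 cells), ABCC4 (196 ± 8.74 against 30.1 ± 1.11 and 38 ± 1.96), ABCA12 (29.9 ± 2.29 against 0.469 ± 0.179 and 0.121 ± 0.0348) and ABCC9 (34.7 ± 0.815 against 8.63 ± 0.0817 and 0.177 ± 0.0289). All 4 were at least 2-fold higher in RCC4 than in either other line by test, with log2 differences of 1.66 to 8.80.

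Some exporters of bile constituents were highest in HepG2 cells, ABCC2 by test and ABCB4, ABCG5 and ABCG8 by level alone. ABCC2 was at 458 ± 45.5 CPM in HepG2, 77.6 ± 2.05 in RCC4 and 1.66 ± 0.299 in HKC-8 cells. ABCC3, at 61.7 ± 9.64 CPM in HepG2 and 45.8 ± 1.62 in RCC4 cells, did not reach 2-fold between these lines. ABCG8, at 19.2 ± 1.33 CPM, was at 0 in both kidney lines, so that HepG2 cells were at least 543-fold above HKC-8 and at least 304-fold above RCC4 cells, with each library's floor of 3 counts in place of 0. ABCB4 at 10.5 ± 1.37 CPM was likewise at least 299-fold above HKC-8 cells. ABCG5 was at least 234-fold above RCC4 cells, and HKC-8 cells held 0, 0 and 1 count of it. The bile salt export pump ABCB11 had at most 1 count in a normoxic HepG2 sample. ABCG2 had no read in normoxic RCC4 cells, at least 439-fold below HepG2 and at least 125-fold below HKC-8 cells. Among the genes higher in RCC4 than in HKC-8 cells was ABCB4, with 1 to 2 counts per sample against 0, for which no fold is given.

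ABCF1, a member of the translation factor family of subfamily F, lies within the histocompatibility region of chromosome 6 (chr6:30539170-30564956, plus strand) and gave the widest contrast. It had 4014, 3866 and 4001 counts in normoxic HepG2 cells, 48, 195 and 36 in HKC-8 and 0 in each RCC4 sample, at least 1444-fold below HepG2 cells. Most of its neighbours were low in the kidney lines too. Of 39 genes that start within 2.5 Mb of ABCF1 and reached 10 CPM in normoxic HepG2 cells, 25 (64.1%) in HKC-8 and 33 (84.6%) in RCC4 cells stood under 0.1 times the HepG2 level, beside 7.44% and 7.27% of 8506 genes elsewhere. MRPS18B, a mitochondrial ribosomal protein, LSM2, of the splicing machinery, and NELFE, of a factor that pauses RNA polymerase, are used by every cell and were at 0 in both kidney lines against 46.7, 19.9 and 41.8 CPM in HepG2 cells. CLIC1 was at 0 against 237 CPM. Some genes beyond the window, counted among the 8506, were low too. SLC39A7 was at 0 in both kidney lines against 73.2 CPM in HepG2 cells. RPS18 was at 29.7 CPM in HKC-8 and 19.5 in RCC4 against 1212 in HepG2 cells. TAPBP, also beyond it, was less low, at 5.43 and 2.65 against 12.4 CPM. The window was chosen after these values were seen, and the cause was not tested. The level of ABCF1 in the kidney lines therefore cannot be read as its expression, and without it the counts of ABC genes that differed between lines were 26, 18 and 30.

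**Figure D4:**
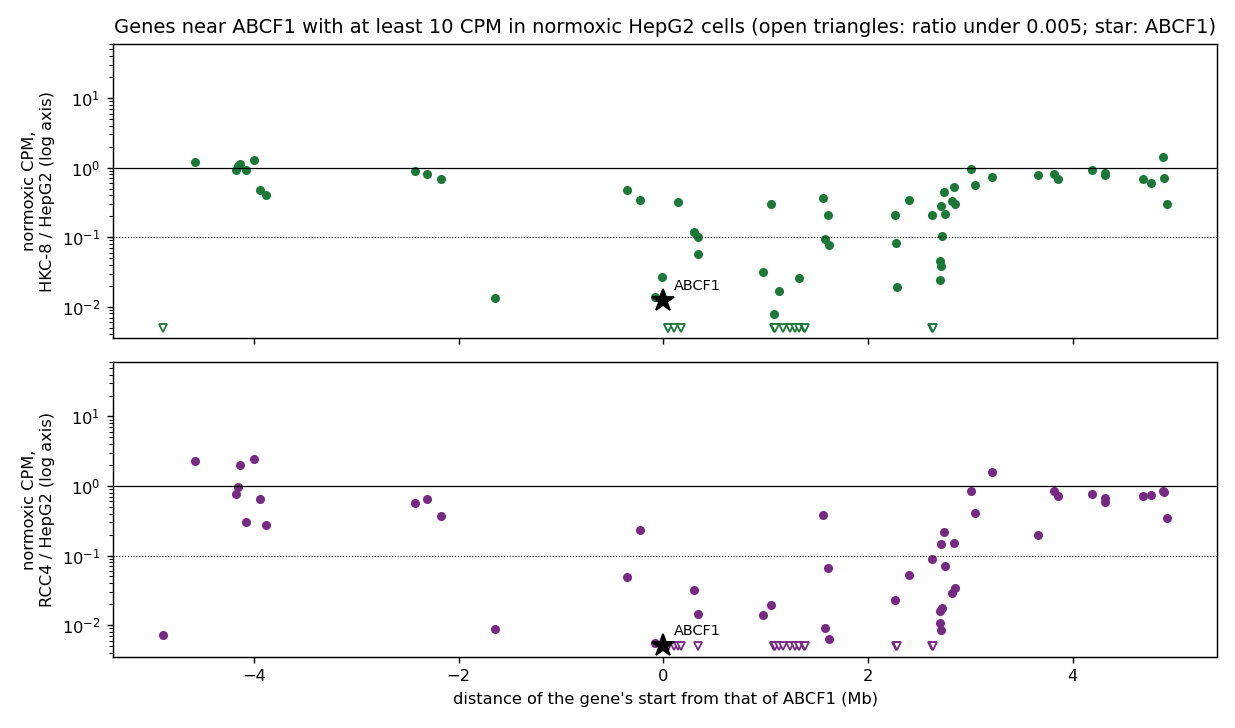
Ratio of the normoxic level in HKC-8 (top) or RCC4 cells (bottom) to that in HepG2 cells (mean CPM, log axis) for genes with at least 10 CPM in HepG2 cells, by distance of their start from that of ABCF1 (star, drawn at the lower limit in RCC4 cells, where it had no read). The dotted line marks 0.1 times the HepG2 level and open triangles a ratio under 0.005. Most genes near ABCF1 and up to 2.5 Mb to its right lie under the dotted line, as do some genes farther to the right.

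ABC proteins with other symbols were TAP1, TAP2 and CFTR. TAP1 and TAP2, which together form the transporter that brings peptides to class I molecules, fell in HepG2 cells from 14.0, 14.3 and 14.6 to 10.3, 10.4 and 10.9 CPM and from 15.2, 15.5 and 15.5 to 9.96, 9.43 and 10.6 CPM. These falls, -0.44 ± 0.09 (adjusted p = 0.00126) and -0.62 ± 0.09 (adjusted p = 0.000116), were without overlap. Both genes lie in the stretch around ABCF1, at chr6:32812986-32821593 and chr6:32789610-32806516, and TAP1 had no read in any RCC4 sample. CFTR had at most 2 counts in any of the 18 samples. Of 8 partner genes of peptide loading, none was called in HKC-8, 5 rose in RCC4, and 3 rose and 1 fell in HepG2 cells. The block called 1 higher in HKC-8 cells, HLA-B. HLA-B, a class I heavy chain encoded in that stretch, rose in RCC4 (0.61 ± 0.06) and HepG2 cells (0.51 ± 0.18). B2M, the class I light chain encoded on another chromosome, rose in RCC4 (0.18 ± 0.04) and fell in HepG2 cells (-0.38 ± 0.07), and PDIA3, of the loading complex, rose in RCC4 cells (0.36 ± 0.03).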

How the data were processed

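PolyA RNA libraries were made with the ScriptSeq v2 kit. The authors trimmed the reads with Trim Galore 0.3.3, aligned them to GRCh37 with TopHat2 2.0.8b and Bowtie 1.0.0, dropped fragments that mapped to more than 1 place with SAMtools 0.1.19, and counted reads per UCSC gene with HTSeq 0.5.4p3 in its strict intersection mode. What was deposited is the count of reads in each gene of each sample, without normalization. Near-identical copies lose reads when such fragments are dropped, and the strand setting is not given in the sources used here.

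Each cell line was fitted alone with edgeR 4.0.16 in R 4.3.3 (filterByExpr, TMM, glmQLFit, glmQLFTest) over all genes, with Benjamini-Hochberg adjustment and calls at an adjusted p under 0.05. Standard errors were taken as the absolute log2 fold change divided by the root of the F statistic. Differences in response were tested as interactions of line and oxygen in the 12 samples of a pair, and normoxic lines in 1 fit of 9 samples with a threshold of 2-fold. Approximate 95% intervals are normal. The ABC genes, partner lists and tests were chosen with earlier results of these data known. Genes given by sample were called with a log2 fold change of at least 0.5 in either direction in some line, and the others given so were chosen after their values were seen. At most 4 called genes of each partner list with the largest changes are named. Counts cover all ABC and partner genes, of which some are not reported singly here. Neighbours of ABCF1, ABCC6P1 in the interactions and similar single genes were named after their values were seen.

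Replicates of a group were compared by chi-square over genes, and no pair was identical or within sampling noise. The labels give normoxic and hypoxic samples of a line the same replicate numbers. The deviations from the group means of same-numbered samples correlated across genes at 0.109, 0.453 and 0.447 in HKC-8, at -0.010, 0.033 and 0.015 in RCC4 and at 0.165, 0.062 and 0.184 in HepG2 cells, so the numbers were taken to pair samples in HKC-8 cells alone, where every pair exceeded 0.1. This rule did not use differently numbered samples. In HKC-8 cells normoxia 1 correlated at 0.116 with hypoxia 2, above its same-numbered pair. In HepG2 cells differently numbered pairs reached at most 0.0234, below every same-numbered pair, and whether samples were paired there was not tested. Calls, standard errors and p-values in HKC-8 cells are from the fit without the block unless the block is named. The alternatives were DESeq2 1.42.0, the replicate block, DESeq2 size factors within edgeR, testing of every gene, a minimum of 10 counts in all samples, 1 fit of all 18 samples, each sample left out and, added after the data were seen, ABCF1 left out. Motifs and the counting interval were computed with Python 3.11.15 and scipy 1.17.1. Intervals and floors cover counting error only.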

Additional observations from a re-analysis of the deposited data

Results flagged for a closer look

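The 20 values given here are differences in response between 2 cell lines whose fitted value passed the test of the interaction of line and oxygen at an edgeR adjusted p under 0.05 over all genes. Each value is a difference of log2 fold changes with its standard error. For the pairs with RCC4 cells the labels give another oxygen level and duration, which the study's text does not, so line and exposure cannot be told apart if the labels hold, and the 3 pairs share samples. The same limit applies to HKC-8 minus HepG2 cells if the sample titles hold, which write different oxygen levels for these lines.

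HKC-8 minus HepG2 cells gave 0.47 ± 0.12 for ABCA1, -2.02 ± 0.24 for ABCA7 and 2.42 ± 0.37 for ABCC3, genes described above. ABCC6P1 gave 2.81 ± 0.82, with 0 to 2 counts in each normoxic HKC-8 sample and reads it may share with ABCC6. It was not tested in HKC-8 cells alone and met the filter through HepG2 cells, so it is not read as a difference in response.

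RCC4 minus HKC-8 cells gave -1.35 ± 0.30 for ABCA12, -0.98 ± 0.27 for ABCA7 and -2.11 ± 0.36 for ABCC3. ABCA12 held 7 to 13 counts in normoxic HKC-8 samples. It met the filter of that line through hypoxic samples alone, so it is not read as a difference. Smaller differences were 0.27 ± 0.08 for ABCC4, 0.28 ± 0.08 for ABCE1 and 0.31 ± 0.10 for ABCF3.

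RCC4 minus HepG2 cells gave 0.67 ± 0.10 for ABCA1, -1.27 ± 0.17 for ABCA2 and -2.99 ± 0.17 for ABCA7. In subfamily B the values were 0.68 ± 0.08 for ABCB1, 0.28 ± 0.10 for ABCB10, and -0.34 ± 0.08 for ABCB8. The fitted value of ABCB5 was -3.64 ± 0.81, but the gene met the filter through normoxic RCC4 samples alone, held 1 to 3 counts in hypoxic ones and was not tested in HepG2 cells alone, so it is not read as a difference. The others were 0.50 ± 0.15 for the pseudogene ABCA11P, 0.25 ± 0.07 for ABCC4 and 0.20 ± 0.07 for ABCE1.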

How the results depend on the processing

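With all 18 samples in 1 fit, 7 ABC genes were lower in HKC-8, 6 higher in RCC4 and 6 lower in HepG2 cells, and the responses of 8 genes differed between HKC-8 and HepG2 and of 7 between RCC4 and HepG2 cells. DESeq2 gave 7 differing responses between HKC-8 and HepG2 cells and the replicate block 9, in place of 4. Requiring at least 10 counts in every sample left fewer genes to test and gave 14, 12 and 18 genes at least 2-fold apart in normoxia between HKC-8 and HepG2, RCC4 and HKC-8, and RCC4 and HepG2 cells. For the alternatives in this section the shares of all genes are not given here, except for HKC-8 cells with the block. Their counts therefore show how calls depend on the processing and are not set against all genes. The block, which pairs samples in HKC-8 cells, gave 10 genes higher and 6 lower there, 11 and 6 in RCC4 and 7 and 11 in HepG2 cells, with 10 responses differing between RCC4 and HKC-8 and 14 between RCC4 and HepG2 cells, and changed no other call of hypoxia against normoxia among the ABC genes described.

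Leaving out 1 sample in turn, without a block, gave 2 to 8 genes higher and 0 to 4 lower in HKC-8, 9 to 12 and 5 to 6 in RCC4, and 7 to 8 and 8 to 10 in HepG2 cells. The responses that differed numbered 2 to 6 between HKC-8 and HepG2, with 2 without HKC-8 normoxia 1, HKC-8 hypoxia 1, HepG2 hypoxia 1 or HepG2 hypoxia 3. They numbered 3 to 9 between RCC4 and HKC-8, with 3 or 4 without any RCC4 sample, HKC-8 normoxia 1, normoxia 2 or hypoxia 1, and 8 to 12 between RCC4 and HepG2 cells. Genes apart in normoxia numbered 27 to 28, 19 to 20 and 31. Among genes without a call, ABCA12 in RCC4 cells ranged from -0.0014 to 0.12 and was negative without hypoxia 3, and ABCC3 in HepG2 cells ranged from -0.064 to 0.18 and was negative without normoxia 1 and without hypoxia 2 (-0.0066). The causes were not tested. The 3-sample groups and the low counts of ABCA12, ABCB5 and ABCC3 in some lines limit what could be called.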
